A study of Mus musculus with 8 samples.

Results

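Narrow YY1 regions without P300 were 1020 places in the mouse genome where YY1 was called in every YY1 library of both genotypes, where no P300 peak was called in any library, and where the called stretch was under 700 bp wide. They were chosen from the peak lists themselves. YY1 peaks of the 4 YY1 libraries on chromosomes 1 to 19 and X were merged wherever they shared at least 1 bp, which gave 20558 regions. A region was kept when it held a peak of all 4 lists, overlapped no peak of the 4 P300 lists and was under 700 bp wide after merging. The 4 YY1 lists shared 2008 regions (9.77% of the merged regions), 1716 of these (85.5%) overlapped no P300 peak, and 1020 of the 1716 were under 700 bp. Presence in the lists, the absence of P300 and the merged width are therefore properties of the choice and are given as description only.

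The cells were E14TG2a, an established line of mouse embryonic stem cells, grown with LIF, PD0325901 and CHIR99021. One genotype was WT and the other Alkbh5 del-cIDR, a deletion in the gene of an RNA demethylase that removes N6-methyladenosine. The labels do not expand cIDR, and they do not say whether the del-cIDR cells were a single clone or whether replicates came from separate cultures. The assay was CUT&RUN: an antibody brings a nuclease to its target protein, and the DNA cut out around it is sequenced. Each antibody and genotype had 2 libraries, with 9167 and 15517 YY1 peaks in del-cIDR, 3519 and 5833 in WT, and 1286 to 2474 P300 peaks.

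YY1 is a zinc-finger protein that binds a short DNA motif, often just downstream of transcription start sites, and can act as an activator or a repressor. It forms dimers that can hold promoters and distal elements together, and it works with the INO80 remodeller and Polycomb proteins. P300 is a histone acetyltransferase recruited to active enhancers and promoters, so a YY1 region without a P300 peak is one where this coactivator was not called at the authors' threshold. The lists are on GRCm39, and no gene annotation or sequence of that build was used, so regions are named by position and their genes, promoters and motifs were not analysed here.

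The strongest narrow regions had folds far above the 3.11 to 3.56 of the weakest members of each list. Fold is the authors' enrichment of reads at the peak summit over a local background, and regions were ranked by the mean over the 4 lists of the percentile of −log10 q within each list. The best-ranked region lay on chr8:71326184-71326619. Its folds were 18.98 and 23.5 in del-cIDR replicates 1 and 2, and 15.2 and 19.2 in WT replicates 1 and 2. The genotypes overlapped there, since WT replicate 2 stood above del-cIDR replicate 1. The second region, chr11:51579577-51580228, had folds of 15.7 and 20.9 in del-cIDR and 13.5 and 17.2 in WT, again overlapping.

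The region with the highest folds of all members was the third, chr2:46620051-46620439, with 26.7 and 27.4 in del-cIDR and 18.7 and 24.5 in WT. It was also the narrowest of the 10 best-ranked regions, at 389 bp, and its nearest P300 peak lay 2634249 bp away. The fourth, chr1:139050217-139050777, had folds of 19.1 and 19.6 in del-cIDR and 14.2 and 18.04 in WT. At the fifth, chr6:82602375-82602845, they were 16.4 and 20.2 against 15.4 and 15.4. Both del-cIDR folds were above both WT folds at these 3 regions.

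At chr17:33903811-33904366, the seventh, the folds were 24.6 and 25.2 in del-cIDR and 13.3 and 13.1 in WT. The reads at its summit, worked out from the authors' fold and −log10 p values, were 86 and 68 in del-cIDR and 41 and 37 in WT. The 4 summits lay within 9 bp of each other, so the lists pointed to the same position. It was 1 of 3 among the 10 best-ranked regions where both del-cIDR read numbers exceeded both WT read numbers. This count was not worked out for all members or all constant regions. Over all constant regions the median reads were 18 and 17 in del-cIDR and 15 and 17 in WT.

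The remaining 4 of the 10 were chr9:44145607-44146284, chr9:119151473-119152110, chr15:79967670-79968317 and chr8:70077924-70078397. The last of these had a P300 peak 248 bp away, so its lack of P300 rests on the overlap rule. All 10 regions had their highest fold in del-cIDR replicate 2, and both del-cIDR folds were above both WT folds in 6 of them. These counts were not worked out for all members or all constant regions. Over all constant regions the median fold was also higher in del-cIDR (7.19 and 8.19) than in WT (5.85 and 6.60). The order is thus not particular to the strongest members. Their folds ranged from 10.4 to 27.4, their merged widths from 389 to 678 bp, and they lay on 8 chromosomes.

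**Figure D1:**
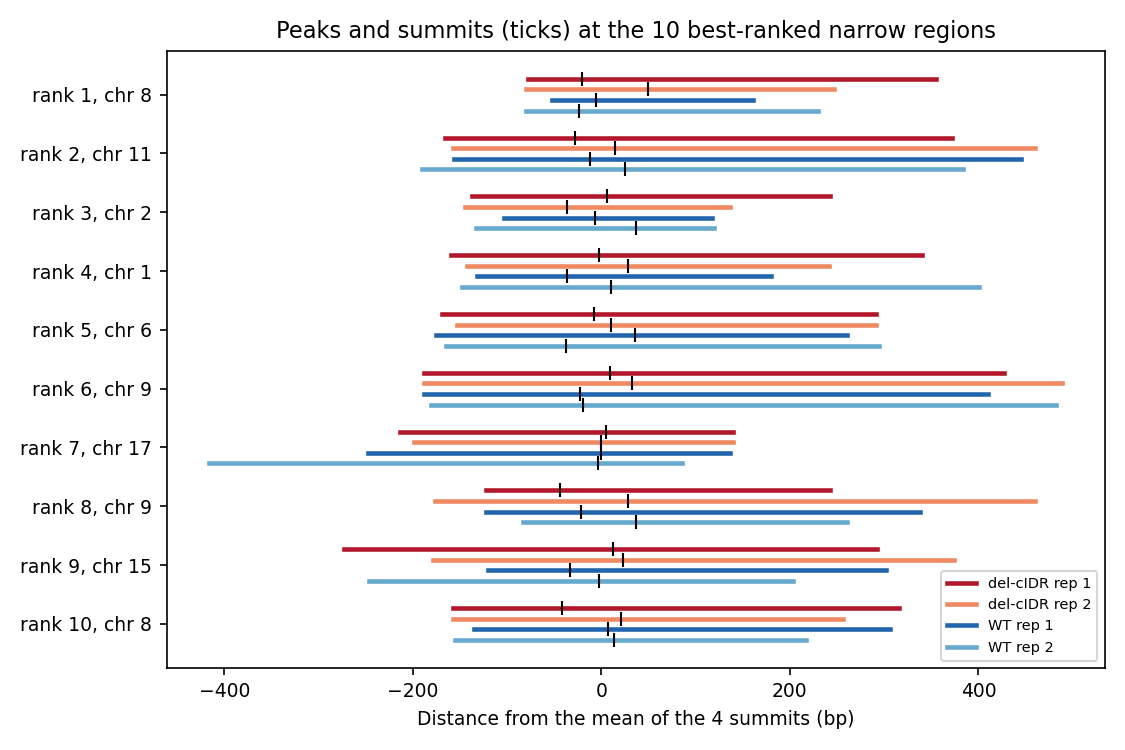
Extent of the YY1 peak (coloured line) and summit (black tick) of each library at the 10 best-ranked narrow regions, as distance in bp from the mean of the 4 summits. The summits of a region lie within 9 to 81 bp of each other, and in 9 of the 10 regions all summits lie on the lower-coordinate side of the midpoint.

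The weakest members were close to the calling threshold in several lists. The lowest-ranked was chr6:148256191-148256565, with folds of 4.83 and 3.68 in del-cIDR and 3.87 and 4.08 in WT. The reads at its summits were 12, 6, 10 and 11. The next, chr4:21879741-21880316, had folds of 4.36 and 4.94 in del-cIDR and 4.52 and 4.15 in WT, and its 4 peaks shared no base. At the other 3 of the 5 lowest-ranked regions, chr2:29510021-29510498, chr5:30359609-30360169 and chr17:25458762-25459092, folds lay between 4.10 and 4.91. Of all members, 448 (43.9%) had a −log10 q of at least 5 in every list and 34 (3.33%) had one under 2 in at least 1 list. These shares were not worked out for all constant YY1 regions. The median −log10 q of the members was 9.14 and 9.92 in del-cIDR and 5.77 and 7.55 in WT. Over all constant regions it was 10.1 and 11.3 in del-cIDR and 6.38 and 8.55 in WT.

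WT replicate 1, the shortest YY1 list, was where members were most often weakest. The lowest −log10 q of a member was in WT replicate 1 for 535 members, in WT replicate 2 for 242, in del-cIDR replicate 1 for 147 and in del-cIDR replicate 2 for 96. These counts were not worked out for all constant regions, where WT replicate 1 also had the lowest median −log10 q of the 4 lists. A further 1024 regions under 700 bp and without P300 were held by the other 3 YY1 lists and missing from WT replicate 1 alone. Those missing from WT replicate 2 alone numbered 268, from del-cIDR replicate 1 alone 103 and from del-cIDR replicate 2 alone 40. Without WT replicate 1 the rule returned 2096 regions. The size of the set thus rests on that library, and absence from a list does not show that a region was unbound.

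The deposited folds of the members were higher in both del-cIDR lists than in both WT lists, while the reads at the summits were not. The median fold was 7.12 and 7.98 in del-cIDR replicates 1 and 2, a mean of 7.55 ± 0.613 (SD, n = 2). In WT replicates 1 and 2 it was 5.77 and 6.48, a mean of 6.12 ± 0.501 (SD, n = 2). The median number of reads at the summit was 16 and 14 in del-cIDR and 14 and 16 in WT, a mean of 15 ± 1.41 (SD, n = 2) in each genotype. The median local background, worked out from the same values, was 1.45 and 0.918 reads in del-cIDR and 1.56 and 1.58 in WT.

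The median read numbers of the genotypes overlapped fully, and the median backgrounds did not overlap. The median background of del-cIDR replicate 1 (1.45) lay nearer to that of WT replicate 1 (1.56) than to that of del-cIDR replicate 2 (0.918). Across members the backgrounds did overlap, with quartiles of 1.02 and 1.90 in del-cIDR replicate 1 and 1.14 and 1.94 in WT replicate 1. Library totals are not given in the files and may differ, so neither fold nor reads can be read as more or less YY1 in a genotype. The labels do not say which library served for the background, and its part in the folds was not tested. With about 15 reads at a typical summit, the fold of a single region carries a large counting error in each library.

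**Figure D2:**
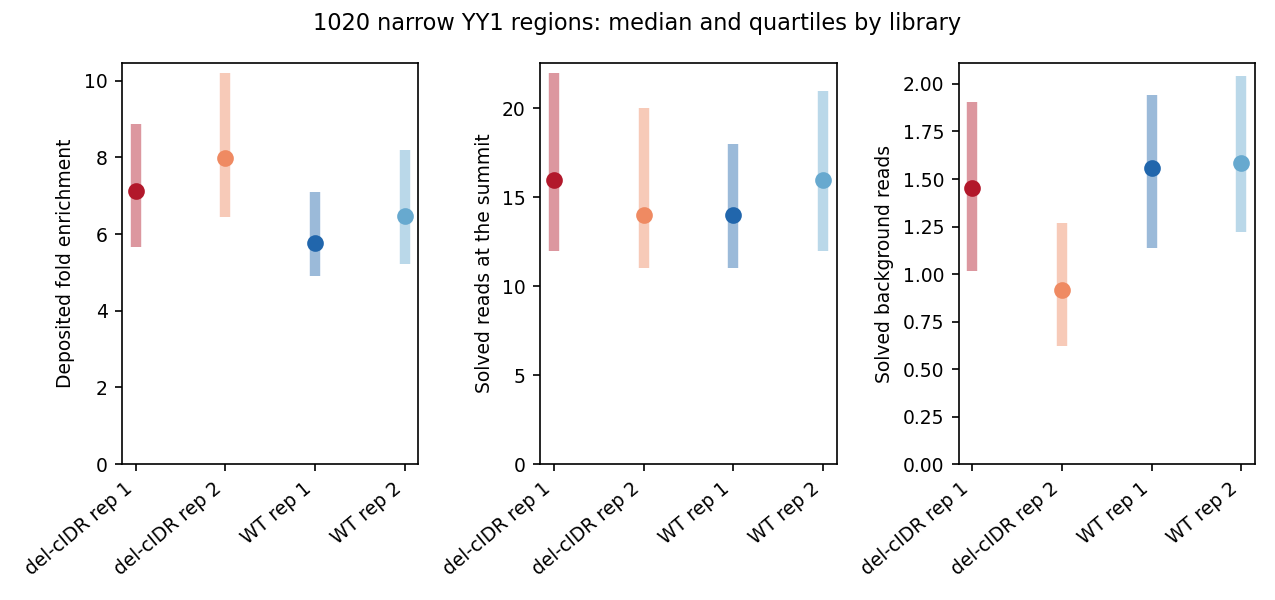
Deposited fold enrichment, solved reads at the summit and solved background reads over the 1020 narrow regions in each YY1 library; points are medians and bars span the quartiles. Both del-cIDR medians of fold are above both WT medians, the medians of reads are 14 or 16 in every library, and del-cIDR replicate 2 has the lowest background, with a median of 0.918.

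Members kept a broadly similar order of strength in all lists. Across the 1020 regions the Spearman correlation of fold was 0.605 between the del-cIDR libraries, 0.572 between the WT libraries and 0.556 to 0.615 between libraries of different genotype. By fold, libraries of the same genotype were thus no more alike than libraries of different genotype. The correlation of peak width was lower. It was 0.414 between the del-cIDR libraries, 0.292 between the WT libraries and 0.269 to 0.369 between libraries of different genotype. These are correlations across regions and not across samples, and fold and width both depend on local background and depth.

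YY1 peaks at the narrow regions were wider in del-cIDR than in WT libraries. The median peak width was 396.5 and 419 bp in del-cIDR replicates 1 and 2, a mean of 407.75 ± 15.9 bp (SD, n = 2). It was 302 and 341 bp in WT replicates 1 and 2, a mean of 321.5 ± 27.6 bp (SD, n = 2). The log2 difference of del-cIDR minus WT was 0.34, a ratio of 1.27, and the gap between the genotype means was larger than the gap between the replicates of either. The two-sided exact permutation test over 6 assignments gave p = 0.33 (n = 2 per genotype), the smallest it allows with 4 libraries. The rule capped merged width, which is built from these same peak widths, so the tested widths were limited by the choice. Over all 2008 constant YY1 regions, which include the members and had no cap, the log2 difference was 0.377. The difference was therefore not particular to the narrow set.

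The shortest peak of each whole list was 164 and 134 bp in del-cIDR and 178 and 163 bp in WT, so the list with the widest member peaks also held the shortest peak. In single regions the order was less uniform. Both del-cIDR peaks were wider than both WT peaks in 403 of the 1020 members (39.5%), beside 42.6% of all constant YY1 regions. Both WT peaks were wider in 52 members (5.10%), beside 5.98%. The widths of the genotypes overlapped in the other 565. The members' shares were near those of all constant regions.

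The regions called in all 8 libraries went the other way. In these 74 regions, where YY1 and P300 lists all held a peak, the median YY1 peak width was 361 and 289 bp in del-cIDR and 369 and 365 bp in WT, a log2 difference of −0.18. The log2 difference was 0.53 higher in the narrow regions than in these. Among constant regions with P300 in any list the log2 difference was 0.22 (n = 292 regions), and in constant regions of 700 bp or more without P300 it was 0.51 (n = 696 regions). The rule limited merged width, which is built from the same peak widths, in the narrow and wide classes and not in those with P300, so these values are a description and the classes were not tested against each other.

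**Figure D3:**
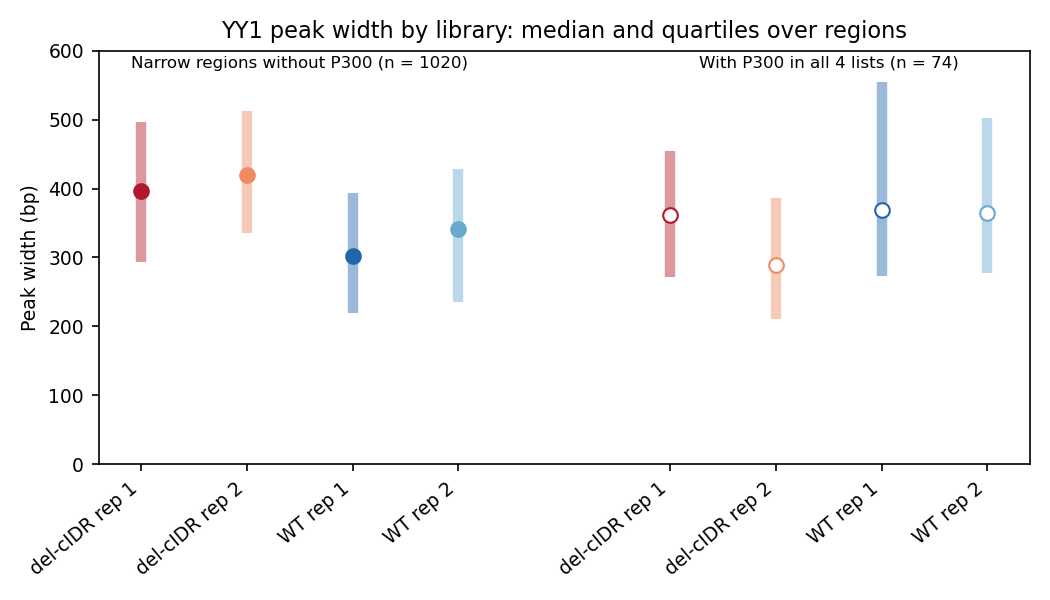
YY1 peak width in bp by library, for the 1020 narrow regions without P300 (filled) and for the 74 regions with P300 in all 4 P300 lists (open); points are medians and bars span the quartiles. At the narrow regions both del-cIDR medians (396.5 and 419 bp) are above both WT medians (302 and 341 bp), and at the 74 regions both are below the WT medians (369 and 365 bp).

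Merged widths ran from 193 to 699 bp, with a median of 531.5 bp, so most members lay in the upper part of the allowed range. Just inside the threshold were chr14:68273869-68274567 at 699 bp and chr2:39115765-39116462 at 698 bp. Just outside were chr3:133249518-133250217, chr15:55547886-55548585 and chr7:119494943-119495642, each 700 bp wide. The folds of these outside regions were 5.17 to 11.8, and those of the 2 inside 4.78 to 9.22, so their folds overlapped across the threshold. These few named regions do not describe the whole set. In 327 members (32.1%) the whole region was covered by the peak of 1 library, and 1005 members held exactly 4 peaks. These counts were not worked out for other constant regions.

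The 4 peaks of a member nearly always covered a common stretch. They shared at least 1 bp in 997 members (97.7%), with a median shared stretch of 205 bp (quartiles 174 and 294 bp), a median of 44.4% of the merged width. All 4 summits fell inside that stretch in 711 members (69.7%). In 23 members the 4 peaks were joined only through each other and shared no base. The rule itself joined overlapping peaks of all 4 lists and kept regions under 700 bp, which favours a common stretch. These shares were not worked out for other constant regions, so they describe the members only.

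Summits of different libraries lay a median of 46.5 to 59 bp apart within a member. The distances were 58 bp between the del-cIDR libraries, 59 bp between the WT libraries and 46.5 to 58 bp for the 4 pairs of different genotype. Summit position thus did not group the libraries by genotype. The span of all 4 summits had a median of 115.5 bp, was at most 50 bp in 112 members (10.98%) and exceeded 300 bp in 74. Over all 2008 constant regions, which include the members, the median span was 126.5 bp. It was at most 50 bp in 229 of these (11.4%) and exceeded 300 bp in 325. Constant regions with P300 had a median span of 119.5 bp, with 21.6% at most 50 bp. For the 74 regions with P300 in all 4 P300 lists these values were 40 bp and 56.8%. The median span was 162 bp in the wide regions, but merged width bounds this span, so it is not independent of the rule.

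Summits coincided most closely at chr5:31651920-31652504, where all 4 lists gave the same base, position 31652148. The folds there were only 6.60 and 9.49 in del-cIDR and 5.44 and 5.96 in WT. At chr1:36996292-36996895 the 4 summits lay within 6 bp, with folds of 10.8 and 12.3 in del-cIDR and 9.51 and 9.89 in WT. At chr11:69563052-69563683 and chr7:44890193-44890833 they lay within 9 bp, as at the chromosome 17 region described above. With the members divided by rank into 3 sets of 340, the median span was 172.5 bp in the weakest set, 118 bp in the middle set and 84 bp in the strongest.

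All 4 summits lay on 1 side of the region's midpoint more often in strong members than in weak ones. All 4 summits lay on the same side of the midpoint in 207 of the 340 strongest members (60.9%, Wilson 95% interval 55.6 to 65.9). The count was 166 (48.8%, 43.6 to 54.1) in the middle set and 111 (32.6%, 27.9 to 37.8) in the weakest. Over all members it was 484 (47.5%, 44.4 to 50.5), with 250 towards lower and 234 towards higher coordinates, and over the wide regions 346 of 696 (49.7%, 46.0 to 53.4). In the 10 best-ranked regions all 4 summits lay on 1 side every time, with 9 towards lower coordinates. Among the 340 strongest members 133 were mixed. The median distance from the midpoint was 13.6% of the merged width in the strongest set, 12.3% in the middle set and 9.3% in the weakest, so the offsets were small. The summit span also differed between these sets, as given above, and its part in the counts was not tested.

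Members made up a smaller share of the longer lists. They held 11.2% and 6.62% of the peaks of del-cIDR replicates 1 and 2, and 29.0% and 17.6% of those of WT replicates 1 and 2. The log2 difference of del-cIDR minus WT was −1.39. Each list holds nearly the same number of member peaks by the rule, 1022 to 1028, so these shares restate the list lengths and are given with no test.

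The members' median percentile of −log10 q within each list was 83.1 and 89.1 in del-cIDR and 63.5 and 74.3 in WT. The rule kept only regions with a peak in all 4 lists, so these percentiles depend on the choice and on list length. In the wide regions the median percentile was 89.1 and 93.1 in del-cIDR and 72.0 and 82.3 in WT, above the narrow regions in every list. Constant regions with P300 were also above them in every list, at 87.3 and 92.9 in del-cIDR and 76.5 and 82.8 in WT. The median folds of the wide regions were 7.41 and 8.54 in del-cIDR and 5.93 and 6.72 in WT, which lay close to those of the narrow regions in each list.

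Narrow regions were found on all 20 chromosomes, with the most on chromosome 11 (75), chromosome 7 (72) and chromosome 6 (69). These were 7.35%, 7.06% and 6.76% of the members, beside 7.49%, 6.40% and 5.42% of all merged YY1 regions. Chromosome X carried 43 of the 1020 members, a share of 4.22% (Wilson 95% interval 3.14 to 5.63). The share was 1.72% (0.989 to 2.99) for the wide regions and 2.70% (2.49 to 2.93) for all merged YY1 regions. Along the range of merged width it was 8.47% (15 of 177, 5.20 to 13.5) under 400 bp. Of these 15 members, 6 belonged to the single row described below, at 336 to 366 bp wide. The share was 4.08% (2.53 to 6.53) from 400 bp to under 550 bp and 2.66% (1.53 to 4.59) from 550 bp to under 700 bp. These differences were not tested, and regions are not independent replicates. In the whole lists X held 3.25% and 2.87% of the del-cIDR peaks and 2.78% and 3.00% of the WT peaks, with overlapping intervals.

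**Figure D4:**
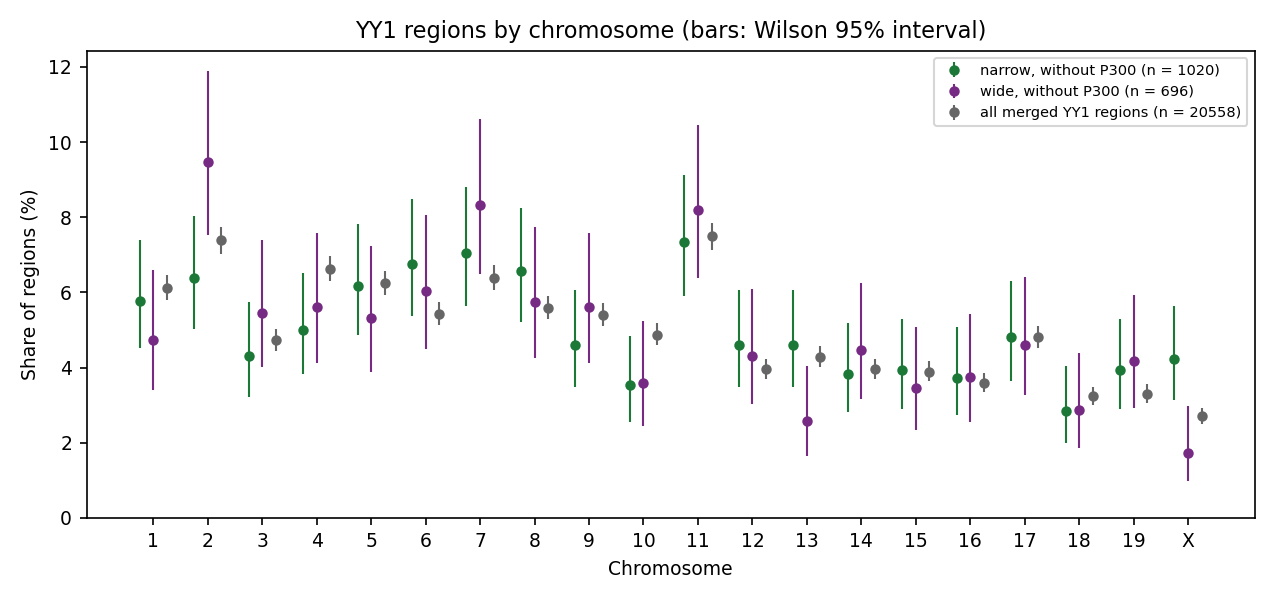
Share of regions on each chromosome, in percent, for narrow regions without P300, regions of 700 bp or more without P300 and all merged YY1 regions; bars are Wilson 95% intervals, which cover counting error only. On X the interval of the narrow regions (3.14 to 5.63) lies above that of the wide regions (0.989 to 2.99).

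Part of the X share came from a row of 6 members in 48359 bp, from 49655487 to 49703845 on chromosome X. It was singled out after its values were seen, as the only 50 kb window holding 6 members. The first member was chrX:49655487-49655822. The other 5 were chrX:49688893-49689249, chrX:49691498-49691863, chrX:49694145-49694492, chrX:49700839-49701203 and chrX:49703498-49703845. Their mean summits were separated by 2614, 2606, 6720 and 2649 bp, so 3 of these 4 spacings lay between 2606 and 2649 bp. The 6 members were also alike in merged width, from 336 to 366 bp, although the whole set ran from 193 to 699 bp.

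The folds of the 6 members ran from 3.80 to 9.67, and by the rule each member held a YY1 peak in all 4 lists. The strongest member, chrX:49691498-49691863, had folds of 9.67 and 8.92 in del-cIDR and 6.85 and 9.28 in WT, so the genotypes overlapped. At chrX:49703498-49703845 the folds were 8.63 and 7.26 in del-cIDR and 4.91 and 6.44 in WT, and the 4 summits lay within 9 bp. At chrX:49688893-49689249 they ran the other way, with 3.80 and 4.43 in del-cIDR and 5.67 and 4.92 in WT. The stretch held 11 merged YY1 regions in all, with 9 and 8 YY1 peaks in del-cIDR and 8 and 9 in WT.

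The nearest P300 peak of any library to a member of the row was 1552820 bp away. Without the 6 members, X carried 37 of 1014 members, a share of 3.65% (Wilson 95% interval 2.66 to 4.99). This was still above the 1.72% (0.989 to 2.99) of the wide regions and the 2.70% (2.49 to 2.93) of all merged regions. The intervals overlapped, which does not show that the shares agree, and the difference was not tested. The row was left in the share of all merged regions.

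**Figure D5:**
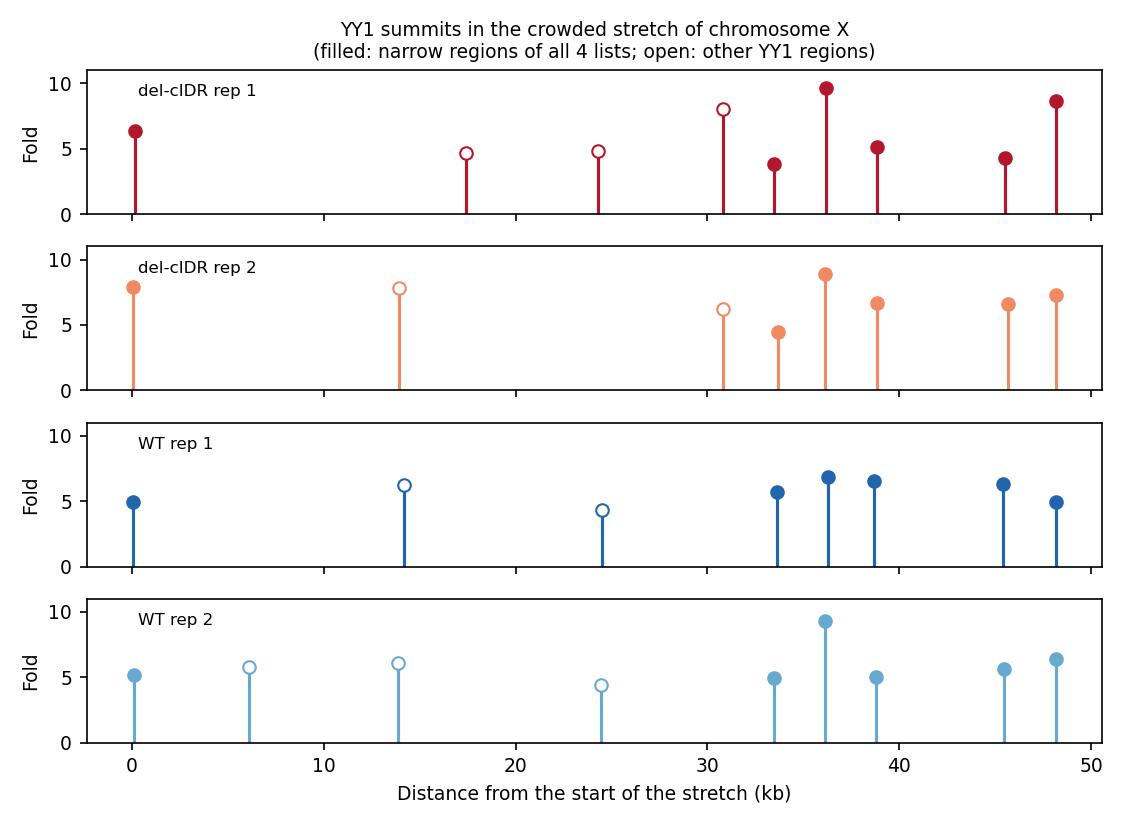
Deposited fold at each YY1 summit in the stretch of chromosome X with 6 narrow regions, by library, against distance from the start of the stretch in kb; filled points are the narrow regions of all 4 lists and open points other YY1 regions. By the rule all 4 libraries hold every member, and the folds of the 5 members at the right end of the stretch run from 3.80 to 9.67.

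Across all members, the nearest other YY1 region lay a median of 19115.5 bp away, beside 17395.5 bp for the wide regions and 16914.5 bp for all merged YY1 regions. Another YY1 region lay within 50 kb of 75.4% of the members and of 75.4% of all merged regions, so at this distance the members matched the whole set. At shorter range, 149 members (14.6%, 12.6 to 16.9) had one within 500 bp. The share was 10.2% (8.17 to 12.7) for the wide regions and 17.8% (17.3 to 18.4) for all merged YY1 regions. Of those 149 close neighbours, 60 were held by del-cIDR replicate 2 alone, the longest list, and 13 by all 4 lists. The same split was not worked out for the neighbours of other regions. Of all merged YY1 regions, 9.77% were held by all 4 lists. Closely spaced pairs of members included chr1:119671743-119672092 with chr1:119672307-119672550, 214 bp apart, and chr13:6723841-6724259 with chr13:6724471-6725092, 211 bp apart.

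The rule removed regions that overlap a P300 peak, which also lowers the number with P300 close by. A P300 peak of any library lay within 1 kb of 22 members (2.16%, 1.43 to 3.24), within 10 kb of 65 (6.37%, 5.03 to 8.04) and within 50 kb of 269 (26.4%, 23.8 to 29.2). For the wide regions these shares were 0.718% (0.307 to 1.67), 4.74% and 26.0%. At 1 kb the intervals of the narrow and wide regions overlapped, which does not show that the shares agree, and the difference was not tested. Over all merged YY1 regions, which include those that overlap P300, the shares were 11.3%, 15.7% and 32.1%. By library, members with a P300 peak within 50 kb numbered 81 and 74 in del-cIDR and 98 and 149 in WT, an order that follows the lengths of the P300 lists. These were 7.94%, 7.25%, 9.61% and 14.6% of the members, beside 11.6%, 10.1%, 12.6% and 19.8% of all merged YY1 regions for the same lists.

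Most of the near P300 peaks were not repeated. Of the 22 members with P300 within 1 kb, 18 had it in a single P300 list, and 4 had it in more than 1. These 4, named after their values were seen, were chr8:62417146-62417715, chr19:11277176-11277563, chr8:26553978-26554609 and chr2:29779018-29779684, with the nearest P300 peak 164, 199, 182 and 783 bp away. The chromosome 2 region was the strongest of them, with YY1 folds of 12.5 and 14.6 in del-cIDR and 6.69 and 13.9 in WT.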

How the data were processed

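CUT&RUN peak lists of 4 YY1 and 4 P300 libraries were analysed, 1 list per library, so replicates were not pooled. Per the submitters' processing notes the tools included MACS2, BWA, fastp, Picard, SAMtools and featureCounts, on GRCm39; versions, roles and a control library are not given in the sources used here. Each peak's deposited score (about 10 times −log10 q, not used), fold ratio at the summit, −log10 p and −log10 q come from the authors' caller. The lowest −log10 q per list was 1.30 to 1.31. Peaks on Y, MT, scaffolds and a sequence named dm (0.683% to 10.0% of a list) were left out. The depth of the libraries is not given.

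The members, comparisons and lists were chosen with earlier results of these data known. Regions were merged and classified in Python 3.11.15 with pandas 2.3.3, tested on simulated lists. Each library's peak with the highest −log10 q stood for it in a region. Reads at the summit were obtained from each peak's fold and −log10 p, assuming a fold of (reads + 1)/(background + 1) and a Poisson tail; 99.2% to 100% of member peaks had a single whole-number solution within 0.002. Median peak widths were compared between genotypes by exact permutation; the labels name no separate cultures, so a p-value reflects only how far these libraries vary, possibly for technical reasons. Wilson 95% intervals cover counting error only. Named regions were the 10 best-ranked and 5 lowest-ranked members, 3 on each side of the width threshold, the 5 with the closest summits, and those named after their values were seen. Of the 3 just under 700 bp, 1 on chromosome 18 is not described. Gene starts, gene lists and motifs were planned and not analysed here, since the gene and promoter tables used the build GRCm38.p6.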

Additional observations from a re-analysis of the deposited data

How the results depend on the processing

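The width difference between genotypes kept its direction under every alternative run, from 0.30 to 0.46 on the log2 scale. Every run drew on the same YY1 libraries and capped merged width, which is built from the tested peak widths, so the runs are not separate support. The difference in list share also kept its direction. It came to −0.0012 with YY1 lists of equal length, where it vanishes by construction. The number of regions was 428 with a width under 500 bp, 1542 under 1000 bp, 451 with YY1 peaks of −log10 q of at least 5 and 625 with YY1 lists of equal length. Leaving out a library gave 1034 to 2096 regions, the highest without WT replicate 1 of YY1; leaving out P300 libraries was added after seeing the data. The mean summit distance of library pairs (54.4 bp) was 47.9 bp with a width under 500 bp, 41.8 bp with −log10 q of at least 5, 45.5 bp at equal length and 54.25 to 60.3 bp with a library left out. The mean of the median folds was 9.19 (del-cIDR) and 7.61 (WT) with −log10 q of at least 5, 8.70 and 6.87 at equal length, and 6.74 to 7.79 and 5.54 to 6.13 with a library left out; higher values follow from keeping stronger peaks. Replicate numbers are not said to mark a shared batch, and the width deviations of same-numbered libraries correlated at −0.0084 across members; with the replicate block the width difference of 0.34 had p = 0.5 (exact permutation, n = 2 per genotype), the smallest possible, and the share difference stayed at −1.39. Promoter and motif alternatives were not run. Solved reads were few, with medians of 14 to 16 per summit, which limits the fold and width of any single region.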
